A study of Mus musculus with 20 samples.

Results

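The probes described here were chosen by their measured footpad signal: they are those whose footpad signal was lower at postnatal day 5 (P5) than at day 1 (P1) in wild-type and Tabby mice, and that otherwise moved little before P1 and after P5. They were 92 of the 42006 probes on the array. The level of a probe is its log2 footpad signal minus the median of all probes on the same array, averaged over the 4 arrays of a stage. A probe was taken when its level at P5 was at least 1 (2-fold) below that at P1 and its signal was well above background on all 4 P1 arrays. Its level at P1 also had to lie within 1 of that before birth (E17.5), its adult level within 1 of that at P5, and the genotypes within 0.5 of each other at P5 and in adults. The array holds 15837 probes that met every criterion other than the difference itself, and 1170 probes whose level was at least 1 lower at P5. The limit of 150 probes was not reached, so all that qualified were kept.

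RNA came from microdissected footpads of wild-type (WT) and Tabby mice, both labelled C57BL6/J, at E17.5, P1, P3, P5 and as adults at postnatal day 56. Each of the 10 groups had 2 arrays, which the labels call biological replicates, and the labels do not say how many animals gave the RNA of an array. Cy3 marked the footpad RNA on all 20 arrays and, per the labels, Cy5 a common reference. The reference was Universal Mouse Reference RNA, a pool of cultured mouse cell lines, mixed with RNA of 129ES embryonic stem cells. Tabby mice carry an inherited mutation of the gene for ectodysplasin A in all their cells, so no single tissue is targeted. The labels do not say which allele or sex was used.

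The footpad of the mouse is the skin site with eccrine sweat glands. These glands begin as buds of the epidermis, and around birth their ducts grow down into the dermis before the coiled secretory part forms. Ectodysplasin A is a ligand of the tumour necrosis factor family that signals through its receptor Edar to start skin appendages such as hair, teeth and sweat glands, and Tabby footpads lack these glands. The days from P1 to P5 are also a time of rapid growth of skin, with changes in epidermis, dermis, vessels, nerve and muscle of the pad. A probe on this array reports the summed RNA of all these cells: fewer cells of a type and less RNA per cell cannot be told apart.

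The files give each probe a Z-number and a 60-base sequence and name 0 of the probes by gene, so no gene name, genome position or function is given for the 92. None of them shared a run of 20 bases with the RefSeq promoter or miRNA sequences at hand, on either strand. The lists of skin, gland and cell type genes prepared for this comparison could not be applied for the same reason, and the labelled tissue could not be checked against its markers. The sequences shown first are those of the probes with the largest computed difference between P1 and P5, in the order of that difference. The place of Z00028908-1 and Z00074836-1 in this order is not measured, since neither was above background on any P5 array.

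Z00065886-1: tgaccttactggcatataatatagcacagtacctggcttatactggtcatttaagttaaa
Z00028908-1: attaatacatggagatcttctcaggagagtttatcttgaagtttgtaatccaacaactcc
Z00029788-1: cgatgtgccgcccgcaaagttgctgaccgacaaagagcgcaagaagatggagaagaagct
Z00074836-1: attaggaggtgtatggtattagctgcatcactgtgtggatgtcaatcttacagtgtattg
Z00059521-1: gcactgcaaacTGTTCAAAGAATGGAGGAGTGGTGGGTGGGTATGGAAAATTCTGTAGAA
Z00045717-1: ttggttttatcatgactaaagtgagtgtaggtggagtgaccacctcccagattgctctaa
Z00046673-1: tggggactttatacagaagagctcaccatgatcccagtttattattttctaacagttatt
The capitals in Z00059521-1 mark the 49 bases that it shares with Z00026790-1, another member, whose difference was slightly larger. All are written 5′ to 3′ on the strand that the probe carries.

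A second pair is shown because its probes differ only by a shift of 2 bases and so read the same transcript at the same place.
Z00072969-1: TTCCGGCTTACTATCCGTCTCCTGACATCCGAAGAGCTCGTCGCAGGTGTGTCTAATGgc
Z00073708-1: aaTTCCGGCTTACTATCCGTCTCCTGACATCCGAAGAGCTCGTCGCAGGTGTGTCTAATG
The capitals mark the 58 bases that both hold. The remaining pair, Z00031132-1 and Z00075413-1, shared 59 bases. The probes of these pairs are not independent members. The members had a median GC content of 45.0%, equal to that of all 26659 probes above background at P1. The hexamer AATAAA, the commonest signal for cleavage and polyadenylation, was on the probe strand of 9.78% of the members and 7.82% of the probes above background at P1. The pentamer ATTTA, the core of AU-rich elements, was there in 3.26% and 7.21%. On either strand the shares were 13.0% against 10.8% for AATAAA and 10.9% against 14.6% for ATTTA, and TTTATT, the reverse complement of AATAAA, can overlap ATTTA. These are counts of letters in 60-base windows and show no binding.

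Each stage was hybridised on a slide of its own of 4 arrays, with the WT arrays at positions 1 and 2 and the Tabby arrays at positions 3 and 4. Differences between stages cannot be told apart from those between slides, nor genotype from position on the slide. The slides of P1, P3 and P5 were scanned on the same day, and those of E17.5 and of adults each on another. Replicate arrays correlated across probes at r = 0.959 to 0.996, and the SD of their difference in log2 ratio was 0.114 to 0.309 in every group other than Tabby E17.5, where it was 0.425. The share of probes well above background in Cy3 was 64.7% to 72.1% per array. The number of arrays limits the precision of every value below.

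The members were lower from P3 on than before, and most of the difference lay between P1 and P3. The rule held their levels at E17.5 and P1 within 1 of each other. The median level over the 92 probes was 1.13 to 1.24 on the 4 arrays of E17.5 and 1.17 to 1.30 on those of P1. It was 0.31 to 0.36 at P3, -0.18 to 0.14 at P5 and 0.13 to 0.60 in adults. Every array before P3 thus lay above every array from P3 on, a gap that the choice of members favours. The P3 arrays were not used in that choice, though the P1 and P5 arrays on either side of them were.

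The differences between P1 and P5 that chose the members are given as a description. Their median was -1.19, a 2.28-fold lower signal at P5, and the most negative was -4.04. No more than 4 probes were lower by at least 2, and 21 by at least 1.5, so most members lay near the threshold of -1. The last inside were Z00005771-1 (-1.005) and Z00015932-1 (-1.001), and the next outside were Z00075811-1 (-0.992) and Z00025734-1 (-0.9899). For 88 of the 92 members the P5 arrays all lay below the P1 arrays, against 11.2% of all probes on the array. With 1 of the 8 arrays of these stages left out at a time, 78 to 90 members were still at least 1 lower, the fewest without WT P1 replicate 2. The difference stayed at or beyond -1 for 65 members whichever array was left out.

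At P1 the median level of the members was 1.31 above the array median, and the range ran from -2.12 (Z00028577-1) to 8.07 (Z00005771-1). The signal was well above background on all 4 arrays in 89 members at E17.5, in 92 at P1 by the rule, in 81 at P3, in 76 at P5 and in 75 in adults. Members with no such array in the stage numbered 7 at P3, 5 at P5 and 4 among adults. At P5 this held for 27.5% of all probes. For these 5 at P5 the Cy3 signals give only bounds. P1 was at least 1.30-fold above P5 for Z00028908-1 and Z00029615-1, and 1.22-fold for Z00077921-1. It was at least 1.17-fold above P5 for Z00074836-1 and 1.14-fold for Z00028577-1. For Z00077921-1 and Z00028577-1 the bound equals the measured ratio. Their P5 signals did not lie below the dimmest probe above background on the same array. The bounds are for the footpad dye, but that dye was normalized together with the reference dye. Normexp with an offset of 50, loess, and quantile scaling of the mean log2 signal of both dyes were used. The offset shrinks the differences of such dim probes, so the bounds hold on that scale. No array had the dyes exchanged. No member was saturated on any array.

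The largest difference belonged to Z00065886-1. Its level was 2.54 and 2.64 in WT and 2.45 and 2.53 in Tabby at E17.5, and 2.35 and 2.54 in WT and 1.93 and 2.40 in Tabby at P1. At P3 it was -0.52 and -0.16 in WT and -0.60 and -1.0 in Tabby. At P5 it reached -1.88 and -1.85 in WT and -1.07 and -2.14 in Tabby, and in adults it lay at -1.17, -1.12, -1.56 and -1.64 in the same order. All 8 arrays up to P1 were above all 12 later ones, and the genotypes overlapped at P1 and P5, while at P3 both Tabby arrays lay below both WT arrays. The P5 level was 16.4-fold below that of P1 on this scale, and the signal was still well above background on all 4 P5 arrays. The log2 ratio to the reference was lower by 2.36 ± 0.15 (SE, limma), a 5.13-fold difference. This ratio carries an offset of 50 in both dyes, which shrinks the differences of dim probes.

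Z00029788-1, next among the probes still detected at P5, was a bright probe that was already lower at P1 than before birth. Its level was 6.74 and 6.50 in WT and 6.47 and 6.72 in Tabby at E17.5, against 5.03, 5.88, 5.90 and 5.83 at P1 in the same order. It continued to 4.43 and 4.45 in WT and 4.57 and 3.97 in Tabby at P3, and to 3.35, 3.42, 3.47 and 3.24 at P5. In adults it was 2.96, 3.49, 2.37 and 3.35. The arrays of E17.5, P1, P3 and P5 formed 4 blocks with no overlap, and 56.8% of the difference between P1 and P5 was there at P3. WT P1 replicate 1 was the lowest P1 array, apart from the other 3.

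Z00026790-1 and Z00059521-1, which share 49 bases, were the brightest of the 8 and ran in parallel over the stages. Z00026790-1 stood at 6.99 and 7.23 in WT and 7.28 and 7.02 in Tabby at P1, and at 4.99, 4.95, 5.36 and 5.22 at P5. Z00059521-1 stood at 7.50, 7.66, 7.68 and 7.62 at P1, and at 5.61, 5.55, 5.83 and 5.74 at P5, in the same order. Over the 20 arrays the former minus the latter had a median of -0.52 and an SD of 0.12. Both were lower at E17.5 than at P1, at 6.05 to 6.43 and 6.66 to 6.90, and both had nearly the whole difference at P3 (93.9% and 93.1%). In adults the arrays spread widely, from 3.74 to 5.49 and from 4.08 to 5.68, with Tabby replicate 1 lowest and Tabby replicate 2 highest for both probes.

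Z00045717-1 had a peak at P1. Its level was 3.76 and 3.65 in WT and 3.65 and 3.70 in Tabby at E17.5, and 4.44, 4.66, 4.19 and 4.22 at P1. At P3 it was 2.61, 2.72, 2.51 and 2.04, at P5 2.43, 2.31, 2.61 and 2.64, and in adults 2.75, 2.76, 2.49 and 2.77. The P3 and P5 arrays overlapped, so that the whole difference (101%) lay between P1 and P3. Z00046673-1 also had its highest stage mean at P1, but its P5 arrays all lay below its P3 arrays and 84.4% of the difference was there at P3. It read 0.55, 0.86, 0.30 and 0.39 at P1, -1.04, -1.01, -1.02 and -0.90 at P3, and -1.28, -1.11, -1.05 and -1.66 at P5.

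Z00028908-1 and Z00074836-1 had no signal above background after P1. Z00028908-1 was at -1.24 and -1.51 in WT and -1.88 and -2.06 in Tabby at P1, and at -4.65, -3.72, -3.61 and -4.88 at P5. Z00074836-1 was at -1.94, -2.17, -2.39 and -1.85 at P1 and at -4.31, -3.58, -3.77 and -4.40 at P5. From P3 on neither probe was marked well above background on any array, so their values at these stages have no order. In the log2 ratio the difference was -0.29 ± 0.06 for Z00028908-1 and -0.23 ± 0.29 for Z00074836-1 (SE, limma). The reference signal of Z00028908-1 was well above background on no P1 array, so its ratio is of dim signals in both dyes.

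Both genotypes had the difference, as the rule favours. The level was lower at P5 than at P1 in WT and in Tabby for 92 of 92 members, and by at least 1 in both for 60. It was larger in WT for 73. How many of all probes had this was not counted, and genotype cannot be told apart from position on the slide. In the log2 ratio the median over members was -0.85 in WT and -0.72 in Tabby. With limma and an adjusted p (Benjamini-Hochberg) under 0.05, 71 members were lower in WT and 58 in Tabby, where 8.63% and 5.7% of all probes tested were lower. With both genotypes together the median was -0.81, and 84 members were lower and 0 higher, against 14.2% of all probes tested that were lower. Since the rule used this contrast, these counts describe the members and support nothing. The 8 that did not pass, Z00074836-1, Z00072699-1, Z00062371-1, Z00077339-1, Z00078158-1, Z00023178-1, Z00045015-1 and Z00028577-1, were dim, with a median level of -1.40 at P1 against 1.64 for the other 84. They were singled out after their values were seen.

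Most of the difference was present by P3. At P3 the stage mean lay below that of P1 in 92 of 92 members, and all P3 arrays lay below all P1 arrays in 81, against 10.1% of all probes. The share of the difference between P1 and P5 reached at P3 had a median of 75.7% (11.2% to 134%). It was at least 50% in 82 members, at least 75% in 46 and at least 100% in 16, and under 50% in 10. On the log2 ratio scale the median share was 81.7%. The second step, from P3 to P5, was smaller: the P5 mean lay below the P3 mean in 76 members, and all P5 arrays lay below all P3 arrays in 32, against 4.83% of all probes. All P3 arrays lay below all P5 arrays in 1 member, against 5.36% of all probes. P1 and P5 values enter both the rule and this share, so it is given with no test.

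The extremes show both courses. Z00061067-1 had the largest share, 134%: its level was 2.99 and 2.92 in WT and 2.79 and 2.96 in Tabby at P1, 0.50, 0.69, 1.13 and 0.73 at P3, and 1.09, 1.07, 1.66 and 1.43 at P5. The WT arrays of P3 and P5 did not overlap, and the Tabby arrays did not either, so the level was lowest at P3. Z00045015-1, with 130%, was dim and well above background on 1 of 4 arrays at P3. At the other end, Z00058071-1 reached 21.2%. Its level was 0.30, 0.01, -0.11 and -0.42 at P1, -0.03, -0.83, 0.01 and -0.26 at P3, and -0.97, -0.99, -1.21 and -1.24 at P5. Its P3 arrays overlapped those of P1 and all lay above those of P5.

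The smallest share, 11.2% in Z00077339-1, rested on the second WT replicate. In that probe WT replicate 2 read 0.54 at P1 and -0.02 at P3, while the other arrays of these stages read -1.5 to -0.84 and -1.32 to -0.99. Without WT P1 replicate 2 its difference between P1 and P5 was -0.63, so it would not have qualified. Its reference signal was raised on the same 2 arrays, at 0.04 and -0.19 against -4.65 to -2.44 on the other arrays of P1 and P3. In the log2 ratio its difference between P1 and P5 was -0.09 ± 0.08 (SE, limma).

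The course before birth separated the members. The P1 level was above that of E17.5 in 51 members, by over 0.5 in 30, and below it in 41, by over 0.5 in 19. Among the 51 the median share of the difference reached at P3 was 85.4%, and 35 had at least 75%. Among the 41 it was 66.5%, and 11 had at least 75%. The P1 value enters both the split and the share, and a P1 array read high would move both, so the contrast is a description. Z00072969-1 and Z00073708-1, the pair shifted by 2 bases, belonged to the first course. Z00072969-1 read 1.45 to 1.65 at E17.5, 2.38 to 2.78 at P1, 0.84 to 1.35 at P3, 0.72 to 1.15 at P5 and 1.39 to 1.76 in adults. Z00073708-1 read 1.78 to 1.84, 2.51 to 2.99, 1.05 to 1.5, 1.14 to 1.37 and 1.49 to 1.98. Both probes were thus highest at P1, and in both all adult arrays lay above all P5 arrays. Z00031132-1 and Z00075413-1, the remaining pair, differed by at most 0.22 on each of the 20 arrays.

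After P5 the members went in either direction. The adult level was above that of P5 in 65 members, by over 0.5 in 32, and below it in 27, by over 0.5 in 12. The median of adult minus P5 was 0.36 over the members. Over the 15837 probes that met every criterion other than the difference it was 0.17. A positive median was thus not particular to the members. A bound of 1 was set by the rule. Z00005771-1, the brightest member at P1, returned almost to its early level. It read 7.87 and 7.97 in WT and 7.88 and 7.97 in Tabby at E17.5, 7.90, 8.17, 8.07 and 8.13 at P1, and 7.11, 6.97, 6.98 and 7.19 at P5. In adults it read 7.93, 8.24, 7.73 and 7.76, all above the P5 arrays. Z00018218-1 went the other way, from 3.87 to 4.27 at E17.5 through 2.97 to 3.31 at P1, 2.14 to 2.55 at P3 and 1.62 to 1.84 at P5 to 1.09 to 1.15 in adults, with no overlap between any 2 stages. It was chosen as an example after its values were seen. Fold differences of these probes across stages also hold the slide, as said above.

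Other probes with shared sequence lay outside the 92. Z00077558-1 has the same 60 bases as the member Z00077921-1 and read lower at P5 by 2.03. The member has only the bound given above, since it was above background on no P5 array. Z00077558-1 was left out because its adult level was over 1 from that of P5 and its genotypes differed by over 0.5 in adults. Z00076596-1 shares 36 bases with Z00075424-1 and was lower by 1.19, against 1.09 for the member. It failed the limit on genotypes in adults. Z00030723-1 shares 32 bases with Z00073972-1 and was lower by 1.45, against 1.02, but failed the limit between E17.5 and P1. Z00077750-1 shares 36 bases with Z00056892-1, was not well above background on all P1 arrays and was lower by 0.15. Z00061144-1 matches 49 bases of Z00026891-1 on the opposite strand and differed by 0.12 in the other direction, against -1.07 for the member. The limits of the rule thus put probes that share sequence on either side.

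The reference channel carries the same RNA on every array, per the labels, though its levels differed between slides, as given below. The rule did not use it, though both dyes are read from the same spot. Cy5 was well above background on all 4 P1 arrays in 73 of the 92 members, so the values below include members dim in Cy5. Between P1 and P5 the Cy5 level of the members had a median of -0.16, against 0.01 over all probes tested. It was lower at P5 in 77 of 92. With limma and the same threshold for the adjusted p, 12 members were lower in Cy5 and 0 higher, against 0.448% of all probes tested that were lower. From P1 to P3 there were 8, against 0.507%. All P5 arrays lay below all P1 arrays in Cy5 in 24 members, against 1.21% of all probes. The 4 P1 arrays had the highest member medians in Cy5, 0.07 to 0.13, where the other 16 had -0.54 to -0.21.

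Of the 8 with the largest computed difference in the footpad channel, 5 were called lower in Cy5. For Z00059521-1 the Cy5 level was 3.09 and 3.06 in WT and 3.05 and 3.33 in Tabby at P1, and 1.97, 1.86, 1.90 and 1.98 at P5, a difference of -1.20 ± 0.13 (SE, limma adjusted p = 0.000367). For Z00026790-1 it was -1.14 ± 0.13 (SE, limma adjusted p = 0.00086) and for Z00045717-1 -0.99 ± 0.10 (SE, limma adjusted p = 0.000278). In Z00065886-1, by contrast, Cy5 differed by -0.28 ± 0.06 (SE, limma adjusted p = 0.0328), against a footpad difference of -4.04. The other one of the 5 was Z00029788-1, at -0.35 ± 0.07 (SE, limma adjusted p = 0.0425).

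The largest differences in Cy5 did not pass the test. Z00077339-1, described above, differed by -1.47 ± 0.71 (SE, limma adjusted p = 0.80). Z00023185-1 differed by -1.29 ± 0.54 (SE, limma adjusted p = 0.663), with a dim Cy5 level of -4.26 to -2.99 at P1 and -4.99 to -4.60 at P5. Its footpad level was 2.64 and 2.60 in WT and 2.20 and 1.75 in Tabby at P1, and 1.18, 1.14, 0.98 and 0.68 at P5. With the processed signals the footpad and reference differences cancelled, to -0.01 in the log2 ratio of this probe, whereas the main ratio gave -1.02 ± 0.21 (SE, limma).

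Over the members, including those dim in Cy5, the Cy5 difference had a median of 11.6% of the footpad difference, and 37.0% in the 12 called. It was under 10% in 42 members, a count that includes those whose Cy5 was higher at P5, by up to 0.42 in Z00040413-1. It was at least 50% in 9. Of the 12, 11 were among the 84 lower in the log2 ratio, and the exception was Z00072699-1. Of the other 80, 73 were. At E17.5 the Cy5 medians of the members were -0.54 to -0.27, below those of P1, while their footpad medians were 1.13 to 1.24 against 1.17 to 1.30 at P1. Single members could differ far more in Cy5, in both directions. The Cy5 stage mean was -1.60 at E17.5 and 1.88 at P1 for Z00012124-1, and -0.54 and 2.41 for Z00056801-1. For Z00070081-1 it was 9.74 at E17.5 and 8.42 at P1. From P1 to adults the Cy5 stage means of these probes stayed at 1.77 to 1.88, 2.37 to 2.41 and 8.42 to 8.67, in the same order. For them only the E17.5 slide stood apart. These probes were chosen after their values were seen. Within the adult slide the Cy5 level of Z00059521-1 was 0.94 and 1.68 on the Tabby arrays, where its footpad level was 4.08 and 5.68, so for this probe both channels also differed together between arrays of 1 slide. What moved the Cy5 level was not tested, nor how far it enters each footpad difference.

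The genotypes were compared at E17.5, P1 and P3, where the rule set no limit on them. The question was whether the members depended on the Tabby mutation before P5. The limits at P5 and in adults had already removed probes whose genotypes differed there. Few calls at the earlier stages are thus favoured by the choice of members. The shares over all probes given below still include such probes. All 92 were tested in the log2 ratio, and 0 were called at any of the 3 stages or for their mean (limma, Benjamini-Hochberg over the 32121 probes tested). The smallest adjusted p of any member at E17.5 came to 0.433, at P1 to 0.9998, at P3 to 0.31 and for the mean to 0.179. Of all probes tested 0.0125%, 0.0342%, 0.237% and 0.355% were called in these comparisons. At an unadjusted limma p under 0.05 there were 23 members at E17.5, 0 at P1, 4 at P3 and 12 for the mean, against 11.5%, 4.27%, 9.4% and 11.1% of all probes. A p that misses the threshold does not show that the genotypes were alike.

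The median difference, Tabby minus WT, was -0.21 at E17.5 (-0.73 to 1.16), -0.04 at P1 (-0.62 to 0.32) and -0.04 at P3 (-0.78 to 0.36). Over all probes tested the medians were -0.04, 0.00 and 0.00. The E17.5 value rested on 1 array: the median was 0.03 without Tabby E17.5 replicate 2 and, with replicate 1 left out in its place, -0.40. Calls in the latter fit changed too, but they rest on 1 Tabby E17.5 array and are not counted here. With arrays brought to 1 scale the median was 0.03, but single members ranged from -2.47 to 2.45. With the array median in place of loess it was -0.44, with 80 of 92 members lower in Tabby. In the footpad channel alone the median was 0.00, with 46 of 92 members lower in Tabby and all within 0.36 of WT. Without Tabby E17.5 replicate 1 the calls for the mean of the 3 stages also changed, and they are not counted for the same reason. A genotype difference that varied over the 3 stages was called in 0 members and in 7 of all 32121 probes (limma F test, chosen after seeing the data), with 4 members at an unadjusted p under 0.05.

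At P3 Z00026042-1 showed the largest separation. Its level was 2.86 and 2.60 in WT and 1.70 and 1.85 in Tabby, with no overlap. At P1 it was 3.30 and 3.33 against 3.06 and 3.17, at P5 1.90 and 1.61 against 1.61 and 1.28, and at E17.5 3.07 and 2.95 against 2.84 and 3.04. The P3 difference in log2 ratio was -0.78 ± 0.27 (SE, limma adjusted p = 0.346). It was negative in all 31 alternatives run, from -0.96 to -0.61. Fits that left out an array of another stage could only repeat the main difference, so this count does not measure consistency. With both arrays of each compared group kept, it passed with the P3 arrays fitted alone (limma adjusted p = 0.0342), array weights (0.00157) and no background subtraction (0.00319). Fits without a Tabby E17.5 array change its p only through the shared estimate of spread and are not counted. This probe was chosen after its values were seen, and its sequence is shown so that it can be followed up.
Z00026042-1: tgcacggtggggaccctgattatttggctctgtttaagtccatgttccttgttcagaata

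Z00018218-1 was lower in Tabby at each of the 3 stages by a small amount. Its level was 4.27 and 4.12 in WT against 3.87 and 3.99 in Tabby at E17.5, 3.26 and 3.31 against 3.15 and 2.97 at P1, and 2.55 and 2.51 against 2.16 and 2.14 at P3. The genotypes overlapped at none of them. The mean difference in log2 ratio was -0.21 ± 0.06 (SE, limma adjusted p = 0.179). It passed with no background subtraction (limma adjusted p = 0.0124), the processed signals (0.0272), the Cy3 channel alone (0.0176) and the deposited table (0.00993). No other alternative that kept both arrays of each group passed. Z00023185-1, whose values at P1 are given above, had a mean difference of -0.57 ± 0.17 (SE, limma adjusted p = 0.23). Among alternatives that kept both arrays of each group, it passed only with no background subtraction (limma adjusted p = 0.0403). In the footpad channel 6 members differed by at least 0.5 between genotypes at P1, all lower in Tabby, and 5 at P3, of which 4 were lower and Z00072416-1 was higher, by 0.56. How many of all probes differed as much was not counted, so these numbers are a description. The lowest at P1 was Z00062371-1, with -0.28 and 0.98 in WT and -1.40 and -1.04 in Tabby, with its WT replicates further apart than its Tabby replicates. On the same arrays its Cy5 level was 0.07 and 1.36 in WT and -1.19 and -0.52 in Tabby. Its log2 ratio was -0.13 and -0.09 in WT and -0.03 and -0.23 in Tabby, so in the ratio the genotypes overlapped.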

How the data were processed

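Spots were read with Agilent Feature Extraction, version 9.5.1.1 per the file headers, and the same tool stands in the submitters' processing notes. The deposited array files give mean and background signals as an intensity for each dye, and processed signals, an intensity that the software corrected for background and balanced between the dyes. Ratios in them are on the log10 scale, Cy5 over Cy3. The deposited value table (25030 probes, 51 of the members) is on a log10 scale whose origin the authors did not state. Set against the array files it followed footpad over reference plus a constant per probe (median SD within a probe 3.1e-05; 64.4% of probes constant within 0.001), and the meaning of that constant stays unknown. Its column medians were 2.53 to 2.59.

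Levels were log2 processed Cy3 signals minus the array median. For tests, mean signals were corrected with normexp (offset 50) and loess, and fitted in 1 limma model (limma 3.58.1, R 4.3.3) with the 10 groups over 20 arrays. The model was also run on simulated data built from its own fitted means and spread, for Tabby minus WT at P3 only. Outlier spots were set to missing, and 0 of them were spots of members. The 32121 probes tested were above background on at least 2 arrays. Tests were two-sided, with Benjamini-Hochberg adjustment over these probes and a threshold of 0.05. The p-values measure the spread between the 2 arrays of a group, which lie on the same slide. A p-value for P5 minus P1 thus holds no spread between slides. The reference channel was fitted alike over 32123 probes, and its spread is that between arrays labelled as carrying the same reference RNA.

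The members, gene lists and tests were chosen with earlier results of these data known. Probes named were the 8 with the largest difference, those called for genotype, those on either side of the threshold, those sharing at least 30 bases, and the extremes in Cy5 and at P3; others are said to have been chosen later. Alternatives covered background, normalization, channel, table, filter, replicate block, variance model and single arrays.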

Additional observations from a re-analysis of the deposited data

How the results depend on the processing

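The median difference in log2 ratio between P1 and P5 was -0.81, and it was -1.06 with the processed signals, -1.19 with the Cy3 channel alone, -0.66 with the array median in place of loess and -1.02 with the deposited table, which held 51 members and called 49 lower. With 1 array left out at a time it was -0.82 to -0.74, with 76 to 79 members lower against 84. Members called for Tabby minus WT numbered 0 in the mean of E17.5, P1 and P3, and were 3 without background subtraction and 1 each with the processed signals, the Cy3 channel alone and the deposited table. With 1 array left out they were 0 to 36, at E17.5 0 to 47, at P1 0 to 0 and at P3 0 to 1. At P3, 1 passed without background subtraction, 7 with array weights and 1 with the P3 arrays alone. The cause was not tested. Z00077339-1 turned to 0.41 with the processed signals and to 0.023 with the array median. In all, 331 of 352 values of named members kept direction and side of the threshold, 15 fell below it, 4 passed it and 2 turned. The replicate numbers did not pair the samples (correlations of same-numbered deviations from -0.07 to 0.22). With the replicate block 84 members were lower, the median was -0.81 and 0 were called for genotype. The median share at P3 stayed between 75.7% and 82.0% in the alternatives that kept all arrays. In Cy5, 13 and 14 members were lower with other scalings, and 8 to 10 with 1 array left out. With the 75th percentile in the rule, 91 of the 92 were chosen again, and with quantile normalization 79. Dim probes limit the result, since 16 members were not above background on all P5 arrays.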
